A study of Mus musculus with 9 samples.

Results

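Deep intragenic regions are the ChIP-seq regions of the mouse heart that lie inside a protein-coding gene but far from both of its ends. They were taken from the deposited list of 16884 regions as those under 2000 bp long that overlap the span of a RefSeq protein-coding gene (build GRCm38) and lie more than 5 kb from every protein-coding gene end. The rule uses only length and position, not signal, and it selected 4008 regions, 23.7% of the list. The assay, ChIP-seq, sequences DNA that an antibody to a protein, here the nuclear receptor NR4A2, pulls down with chromatin. Heart ventricle of 3 NR4A2 mice and 3 control mice was used, and each mouse gave 1 library. The NR4A2 mice (Nr4a2-icTg) come from a cross of mice carrying an Nr4a2 conditional knock-in with reporter at the ROSA26 locus (EGE-GJ-095) with mice carrying a Cre recombinase fused to an estrogen receptor domain under the Myh6 promoter (the Myh6-cre/Esr1* transgene), so that tamoxifen switches the knock-in on in cardiomyocytes. The control mice are littermates with the αMHC-MerCreMer inducible Cre, and the labels do not say whether they also carry the uninduced knock-in. Mice of both groups were 8 to 9 weeks old when they received 1 intraperitoneal injection of tamoxifen at 40 mg/kg, and hearts were studied on day 3. The tissue was whole ventricle, which holds cells other than cardiomyocytes, and the Myh6 promoter restricts the transgene to cardiomyocytes. The series also holds 3 libraries (an antibody test ChIP, its input and a pooled input) that have no column in the table and were not analysed here. Chromatin of fruit fly was added to each reaction as a spike-in. The values used here are scaled to each library's reads in regions. Whether reads were reduced by the spike-in before they were counted is not given by the sources used here.

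NR4A2 (also called Nurr1) is an orphan member of the nuclear receptor superfamily whose ligand pocket is filled by its own side chains. It is an immediate early gene product, and it binds as a monomer to the NGFI-B response element (NBRE), which is the core motif of nuclear receptors, AGGTCA, with extra adenines on its 5′ side. Sequence bound inside a gene can be an enhancer of that gene or of another, or an alternative promoter from which a shorter transcript starts. The regions carry no information on which gene they act on, so the gene named for a region is its host, the gene whose span holds it.

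The table gives coordinates but no sequence, and no genome of this build was used, so sequence could be read only where a region overlaps a RefSeq promoter window (GRCm38.p6), which runs from 250 bases before to 50 bases after an annotated start. Such a window overlapped 422 of the 4008 regions. These are internal starts, nearly all of them alternative starts of the host gene (375) and the others starts of another gene within the host (47). Internal starts were set apart once the data were known. Of them, 22 carried more signal in NR4A2 hearts than in control hearts, and 6 of these had the NBRE letters AAAGGTCA on either strand of a window. The 250 bases before each of these 6 starts are shown, 5′ to 3′ on the strand of the transcript, with the NBRE letters in capitals. In the Nfix sequence the letters lie on the opposite strand and read TGACCTTT.
Spns2: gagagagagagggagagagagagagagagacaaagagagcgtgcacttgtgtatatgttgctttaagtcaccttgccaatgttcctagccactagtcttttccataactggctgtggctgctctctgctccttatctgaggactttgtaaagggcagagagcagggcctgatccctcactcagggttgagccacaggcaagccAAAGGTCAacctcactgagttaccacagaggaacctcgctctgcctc
Adcy7: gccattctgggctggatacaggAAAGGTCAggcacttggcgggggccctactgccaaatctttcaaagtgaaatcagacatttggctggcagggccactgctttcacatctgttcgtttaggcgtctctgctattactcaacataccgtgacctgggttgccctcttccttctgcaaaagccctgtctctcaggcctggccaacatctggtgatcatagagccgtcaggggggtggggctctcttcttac
Nfix: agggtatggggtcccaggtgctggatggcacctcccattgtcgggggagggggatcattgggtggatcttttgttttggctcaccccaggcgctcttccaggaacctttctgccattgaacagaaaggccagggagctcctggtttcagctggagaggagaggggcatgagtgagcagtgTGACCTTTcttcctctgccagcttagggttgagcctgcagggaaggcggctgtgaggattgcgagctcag
Rxrg: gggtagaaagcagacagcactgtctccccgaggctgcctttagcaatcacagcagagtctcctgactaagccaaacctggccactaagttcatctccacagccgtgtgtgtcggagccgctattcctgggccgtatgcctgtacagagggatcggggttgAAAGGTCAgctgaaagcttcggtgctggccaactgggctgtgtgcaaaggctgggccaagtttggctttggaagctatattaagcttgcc
Gm35636: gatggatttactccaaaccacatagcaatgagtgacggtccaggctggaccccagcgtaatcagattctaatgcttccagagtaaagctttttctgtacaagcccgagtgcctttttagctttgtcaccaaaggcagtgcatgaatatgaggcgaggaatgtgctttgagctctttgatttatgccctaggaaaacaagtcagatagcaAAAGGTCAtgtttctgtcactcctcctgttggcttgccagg
Sox6: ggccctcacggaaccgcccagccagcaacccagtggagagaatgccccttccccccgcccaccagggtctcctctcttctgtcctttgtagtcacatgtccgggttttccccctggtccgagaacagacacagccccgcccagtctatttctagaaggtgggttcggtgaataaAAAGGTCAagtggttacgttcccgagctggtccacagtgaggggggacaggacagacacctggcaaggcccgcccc
Phip: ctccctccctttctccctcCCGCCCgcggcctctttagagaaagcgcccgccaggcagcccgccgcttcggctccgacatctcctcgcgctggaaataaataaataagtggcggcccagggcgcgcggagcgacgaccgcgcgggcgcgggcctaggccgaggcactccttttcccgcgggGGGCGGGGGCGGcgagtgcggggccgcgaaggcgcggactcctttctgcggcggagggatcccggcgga
The Spns2 stretch is chr11:72475028-72475277 (minus strand), the Adcy7 stretch chr8:88282742-88282991 (plus), the Nfix stretch chr8:84775829-84776078 (minus), the Rxrg stretch chr1:167618015-167618264 (plus), the Gm35636 stretch chr10:86161700-86161949 (plus, within Syn3) and the Sox6 stretch chr7:116031048-116031297 (minus). The letters begin 228 bases before the start at Adcy7, 90 at Rxrg, 76 at Sox6, 70 at Nfix, 47 at Spns2 and 41 at Gm35636. All 6 matches lie inside the ChIP-seq region itself. For contrast, the last sequence precedes the internal start of Phip, the strongest in signal of those called lower in NR4A2 hearts (chr9:82975490-82975739, minus strand). Its capitals mark the letters of the GC box, GGGCGG on either strand. It holds no NBRE letters and is 72.4% G and C.

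Deep intragenic regions carried more of the signal in NR4A2 hearts than in control hearts. Values are CPM, the reads of a region scaled to the reads in all regions of its library, so a share is relative to all reads in the 16884 regions of the same mouse. The 162 deep intragenic regions on chromosome 18 had no promoter window and are counted as away from internal starts. The 4008 regions held 12.0%, 12.1% and 11.5% of the CPM of the 3 control mice and 14.4%, 15.2% and 15.9% of that of the 3 NR4A2 mice. The groups do not overlap, and the means were 11.9% ± 0.29 and 15.2% ± 0.76 (SD, n = 3), a difference of 3.32 percentage points. The median region held 18.4, 18.5 and 16.3 CPM in the control mice and 27.7, 28.4 and 32.8 CPM in the NR4A2 mice. Per kilobase of region the median rose from 52.1 to 79.5 CPM. In bulk tissue, more cells with the receptor on a site and more receptor per cell cannot be told apart.

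**Figure D1:**
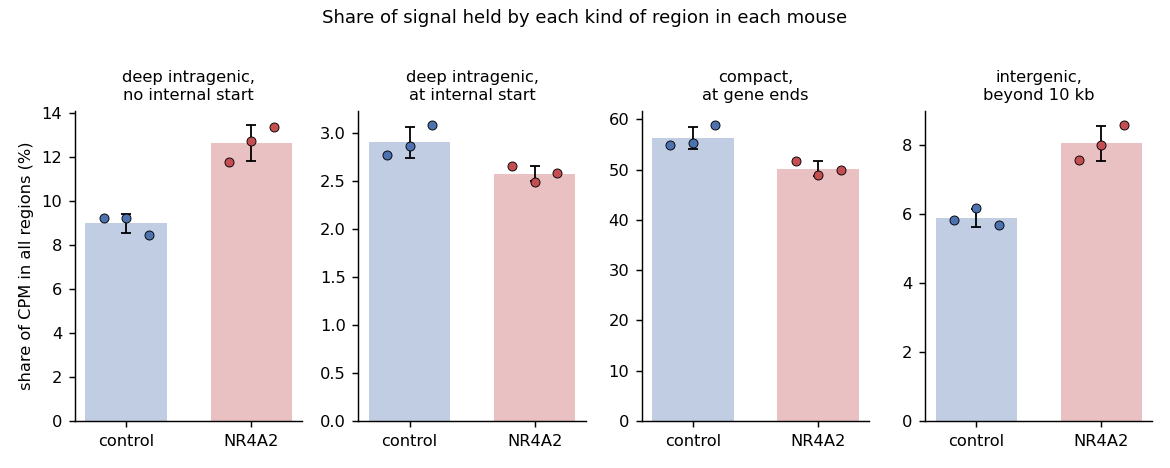
Share of all CPM in regions (%, y axis, each panel with its own scale from 0) held by 4 kinds of region in each control and NR4A2 mouse (points); bars are means and error bars SD over 3 mice. Regions away from internal starts hold 8.47 to 9.23% in control mice and 11.8 to 13.4% in NR4A2 mice, and regions at internal starts lie at 2.77 to 3.08% and 2.49 to 2.66%.

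Signal was tested in each region with limma on log2(CPM + 1), with Benjamini-Hochberg adjustment over all 16884 regions, and a region with an adjusted p under 0.05 was called. A fold change is NR4A2 minus control on that log2(CPM + 1) scale, which understates the change of weak regions. Of the 4008 deep intragenic regions, 1130 (28.2%) were higher in NR4A2 hearts, where 14.7% of all regions were. Another 77 (1.92%) were lower, against 3.17% of all regions, and 2801 were not called. Deep intragenic regions thus made up 45.7% of all regions called higher and 14.4% of all called lower. The median log2 fold change was 0.41 over the 4008 regions and -0.06 over all regions. edgeR on the recovered reads called 1183 higher (15.2% over all regions) and 87 lower (3.43%). The authors' deposited table calls 1180 of these regions up and 60 down, where it calls 14.9% and 1.95% of all regions. The calls made here and those of the authors' deposited table share 1106 higher regions, 97.9% of the former and 93.7% of the latter, and 55 lower regions, 71.4% and 91.7%.

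The gains lay mainly in regions of low to middle signal. Among the 1043 deep intragenic regions with a mean over the 6 mice of at least 37.4 CPM, the median of all regions, a test of such regions alone called 174 higher and 20 lower, and their median log2 fold change was -0.05. All regions were put into 4 equally large groups by mean CPM. The share of deep intragenic regions called higher was 27.6% in the weakest group (1726 regions), 37.1% in the next (1239), 23.7% in the one after (679) and 8.79% in the strongest (364). The share called lower ran the other way, from 0.637% in the weakest group through 1.21% and 2.80% to 8.79% in the strongest, where gains and losses were equal in number. The sources used here do not give how a region entered the deposited list, and whether weak regions were listed because NR4A2 libraries were strong there was not tested. Without NR4A2 mouse 3 the count of higher regions was 709, of which 704 were among the 1130. Without control mouse 2 or NR4A2 mouse 3 that of lower regions was 40 or 38, of which 32 or 27 were among the 77.

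Regions that gained went from weak to moderate signal, and those that lost started strong. At the median, the 1130 higher regions went from 9.27 to 36.5 CPM. A change of 4-fold or more was seen in 494 of them (43.7%). In 58 of them at least 1 control mouse had no read. In 1103 of the 1130, which were selected on these same values, all NR4A2 mice lay above all control mice. Over the 4008 regions that held for 1502 (37.5%), where it held for 19.9% of all regions, and the opposite order held for 284 (7.09%), where it held for 11.7%. The 77 lower regions went from 73.8 to 41.8 CPM at the median, with a change of 2-fold or more in 29. Median length was 344.5 bp for higher and 601 bp for lower regions.

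Control and NR4A2 hearts differed more at these regions than mice of 1 group did. Pairs of control mice had correlations of log2(CPM + 1) of 0.781 to 0.840 over the 4008 regions, pairs of NR4A2 mice 0.692 to 0.753, and pairs across the groups 0.358 to 0.540. At the 7968 compact regions within 1 kb of a gene end the between-group values were 0.774 to 0.864, and at the 2001 intergenic regions more than 10 kb from a gene 0.268 to 0.506, so low values were not particular to deep intragenic regions. These are correlations across regions of the same libraries, given as a description. Recovered reads in regions numbered 549700 to 1035856 per mouse, so 1 read was worth 0.955 to 1.81 CPM, and deep intragenic regions without a read numbered 0 to 57 per mouse, the most in control mouse 3, the shallowest library.

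Depth inside the gene went with the share of gains. Among regions 5 to 10 kb from the nearest gene end, 18.6% of 810 were higher and 3.21% lower. At 10 to 20 kb 27.2% of 865 were higher, at 20 to 50 kb 31.1% of 1149, at 50 to 100 kb 27.2% of 706, and beyond 100 kb 40.8% of 478, with only 2 regions lower. With internal starts left out the shares were 21.9, 30.1, 33.4, 29.0 and 42.5%. Regions beyond 100 kb had the weakest control signal, a median of 13.5 CPM against 22.6 CPM at 5 to 10 kb, while the medians in NR4A2 hearts were 29.9 and 29.7 CPM. Position along the host gene went with smaller differences: in 5 equal stretches from the gene's start to its end, 25.7, 28.1, 30.3, 29.5 and 31.5% of regions were higher, over the 3154 regions whose single host has a known strand. By length, 30.3% of regions under 300 bp and 13.95% of those of 1000 bp or more were higher. Other classes of region lay on either side: 2.03% of compact regions at gene ends were higher, and 36.6% of 2001 intergenic regions more than 10 kb from a gene.

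**Figure D2:**
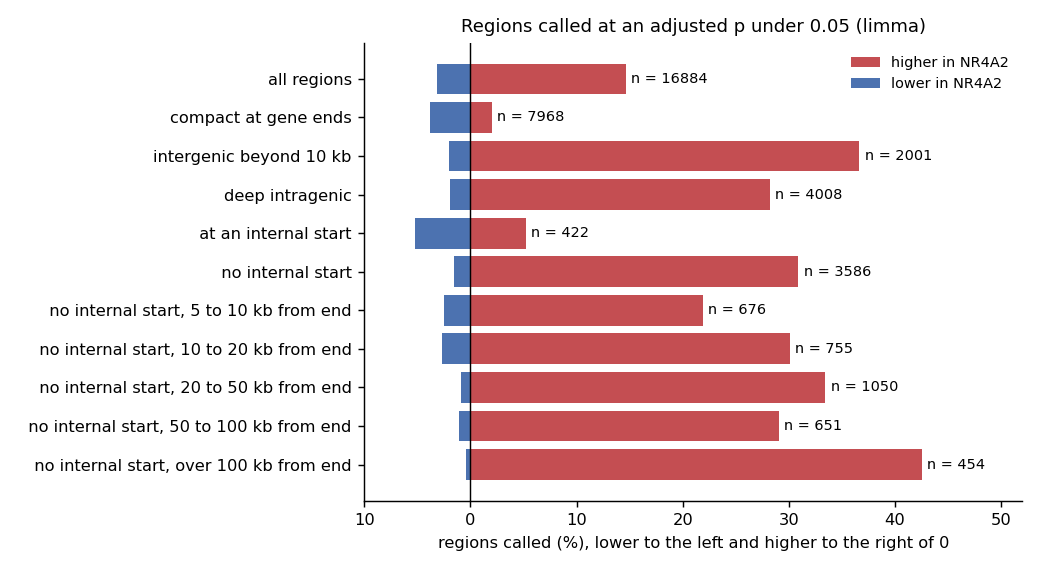
Regions called by limma at an adjusted p under 0.05, as a share of each class (%, x axis), higher in NR4A2 to the right of 0 and lower to the left, with the number of regions beside each bar. Deep intragenic regions at an internal start (5.21% higher, 5.21% lower) resemble regions at gene ends (2.03% and 3.84%) more than other deep intragenic regions (30.9% and 1.53%).

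Regions at internal starts behaved unlike the other deep intragenic regions. Of 422, 22 (5.21%) were higher and 22 (5.21%) lower, with a median log2 fold change of -0.16 and median signals of 56.5 CPM in control and 50.4 CPM in NR4A2 hearts. Of the 3586 away from internal starts, 1108 (30.9%) were higher and 55 (1.53%) lower, with a median log2 fold change of 0.54 and medians of 16.8 and 28.0 CPM. Regions at internal starts were stronger, and the difference in higher calls was seen within each of the 4 groups by mean CPM. From the weakest to the strongest, 28.2% away from starts against 6.52% at starts were higher, 39.5% against 10.7%, 28.0% against 3.36% and 13.3% against 2.60%. Lower calls did not differ in the same direction in every group: 0.655% against 0%, 1.06% against 2.91%, 2.68% against 3.36% and 8.10% against 9.74%. Internal starts held 2.77%, 2.86% and 3.08% of the CPM of the control mice and 2.66%, 2.49% and 2.58% of that of the NR4A2 mice. Their share was thus lower in every NR4A2 mouse than in any control mouse, while the share of the other deep intragenic regions was higher (9.23, 9.22 and 8.47% against 11.8, 12.7 and 13.4%). Among starts of another gene within the host, 5 of 47 were higher and 3 lower. The count of higher internal starts was 12 without NR4A2 mouse 3, 14 without NR4A2 mouse 1, 14 without control mouse 3 and 6 without scaling for depth. Of the 22 lower calls, 8 remained without control mouse 3, 8 without NR4A2 mouse 3, 9 without NR4A2 mouse 2, 12 without control mouse 2, 5 with scaling to regions at gene ends and 0 without scaling for depth.

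The internal start of Spns2, a transporter that exports sphingosine 1-phosphate, had 6.15, 19.5 and 25.3 CPM in control mice and 92.6, 75.7 and 94.6 CPM in NR4A2 mice. Every NR4A2 mouse exceeded every control mouse, and at 2.49 ± 0.35 (SE) its log2 fold change was the largest of the 22 (limma, adjusted p = 1.01e-07). The start within Sox6, which encodes a transcription factor of muscle fibre type, had 86.1, 73.0 and 123.1 CPM in control and 173.8, 173.4 and 186.7 CPM in NR4A2 mice (0.95 ± 0.19, adjusted p = 1.17e-04), so a strong site in control hearts gained further. At Pfkm, the muscle phosphofructokinase of glycolysis, a start rose from 55.5 ± 13.1 to 111.0 ± 21.1 CPM (SD, n = 3; log2 fold change 0.99 ± 0.23, adjusted p = 6.84e-04). At Myom1, which encodes the M-band protein myomesin 1, it rose from 78.4 ± 13.02 to 134.3 ± 32.5 CPM (adjusted p = 5.25e-03), a call lost without NR4A2 mouse 2 (adjusted p = 0.083). Rxrg, which encodes retinoid X receptor gamma, had 20.5, 15.6 and 7.24 CPM in control and 23.9, 44.1 and 45.4 CPM in NR4A2 mice (log2 fold change 1.38 ± 0.42, adjusted p = 0.0122), a gap of only a few CPM between the groups. Its call was lost without control mouse 3, NR4A2 mouse 2 or NR4A2 mouse 3 (adjusted p up to 0.107). Adcy7, an adenylyl cyclase, went from 7.73 ± 8.51 to 28.4 ± 6.47 CPM, Nfix, a nuclear factor I protein, from 15.8 ± 3.42 to 54.7 ± 21.7 CPM, and the start of Gm35636 within Syn3 from 12.2 ± 2.05 to 33.5 ± 15.2 CPM. The Gm35636 call was lost without control mouse 1 or 3 or NR4A2 mouse 1 or 3, and those of Adcy7 and Nfix held without any 1 mouse. Without scaling for depth Spns2, Adcy7 and Nfix kept their calls, and Sox6, Pfkm, Myom1, Rxrg and Gm35636 lost theirs (adjusted p 0.137 to 0.464).

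NBRE letters were found at higher internal starts in a larger share than elsewhere. A window with AAAGGTCA on either strand overlapped 6 of 22 higher internal starts (27.3%), 0 of 22 lower ones, which allows a share of up to 13.6%, and 3 of 378 uncalled ones (0.794%). Of all 32851 promoter windows 495 held the letters (1.51%). No test was made of these counts, and members were not matched for base composition. At the regions of the list that are not deep intragenic and overlap a window, the shares were 3 of 74 higher (4.05%), 0 of 257 lower (up to 1.17%) and 59 of 5713 uncalled (1.03%). The 3 uncalled starts were those of Celf2 (log2 fold change 0.03) and Tcf12 (-0.07), where the letters lie outside the region, and of Tank (-0.87, adjusted p = 0.097), where they lie inside it. The letters around the Tank match, which reads on the opposite strand, are shown for comparison (chr2:61592888-61592955, plus strand).
Tank: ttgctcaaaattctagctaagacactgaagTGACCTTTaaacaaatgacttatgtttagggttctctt
Tank had 40.0, 32.1 and 43.4 CPM in control mice and 15.3, 31.5 and 17.7 CPM in NR4A2 mice. The groups do not overlap, but control mouse 2 and NR4A2 mouse 2 were nearly level. The letters thus sat in a region that was not called and whose signal was not higher in any NR4A2 mouse. The count of higher internal starts with the letters was 4 to 6 when any 1 mouse was left out, 4 at an adjusted p under 0.01, 3 without scaling for depth and 2 in the test of regions of at least median signal. The core motif AGGTCA alone, which the NBRE contains, was in windows of 10 of 22 higher, 5 of 22 lower and 57 of 378 uncalled starts, and in 16.3% of all windows.

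**Figure D3:**
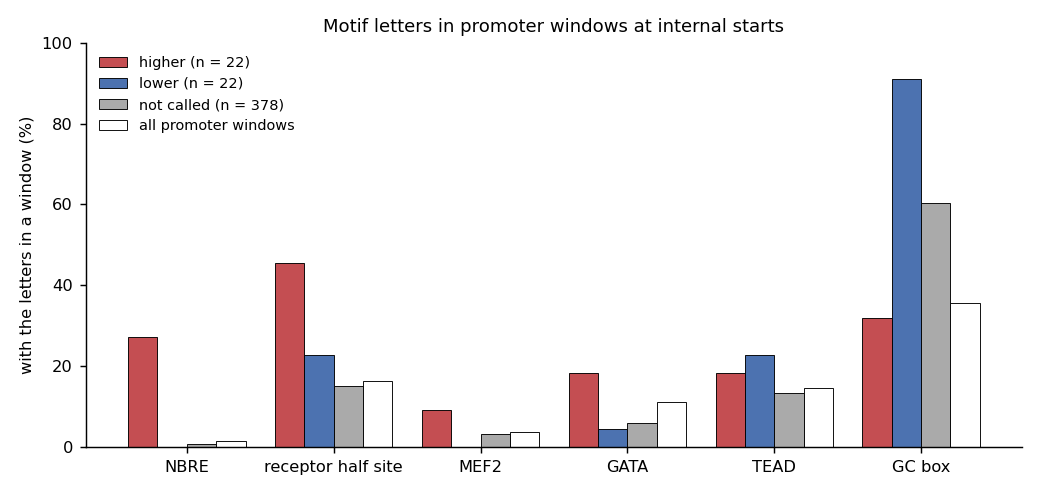
Share (%, y axis) of internal starts called higher, lower or not called that have the letters of 6 motifs in an overlapping promoter window, beside the share among all promoter windows. NBRE letters stand at 27.3% of higher starts and 1.51% of all windows. GC box letters stand at 90.9% of lower starts, 60.3% of uncalled starts and 35.7% of all windows.

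Windows at lower internal starts were rich in G and C. The 22 calls behind this group are fragile: Phip alone kept its call whichever mouse was left out. None was kept without scaling for depth, a setting that leaves the differences in depth between libraries in the values. GC box letters were in windows of 20 of 22 lower (90.9%), 228 of 378 uncalled (60.3%) and 7 of 22 higher internal starts (31.8%). Of all single windows 35.7% held them. The 22 lower starts overlapped 31 windows, so a share of starts and a share of windows differ in unit. Regions of the list that are not deep intragenic but overlap a window were also counted. There the letters were at 201 of 257 lower (78.2%), 4202 of 5713 uncalled (73.6%) and 33 of 74 higher regions (44.6%). High shares were thus not particular to deep intragenic regions. Median G and C content was 75% in windows of lower starts, 61.8% of uncalled and 53% of higher ones, and 52.7% over all windows. The median number of CG dinucleotides per window was 39 at lower, 19 at uncalled and 5 at higher starts. Letters of the cardiac factors were less unequal: MEF2 letters were in windows of 2 of 22 higher, 0 of 22 lower and 12 of 378 uncalled starts, and GATA letters (AGATAA) of 4, 1 and 22. TEAD letters (GGAATG) were in 4, 5 and 50. Each motif was searched on both strands, and a match describes letters only.

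Among the lower internal starts, Phip, which encodes a bromodomain protein, had 334.0, 291.0 and 492.3 CPM in control mice and 258.8, 211.2 and 199.3 CPM in NR4A2 mice. All NR4A2 mice were below all control mice, and the log2 fold change was -0.71 ± 0.17 (adjusted p = 8.02e-04). The internal start of Nr4a1, the closest relative of the receptor that was immunoprecipitated, had 55.3, 94.4 and 101.4 CPM in control and 55.4, 37.8 and 49.2 CPM in NR4A2 mice, so control mouse 1 and NR4A2 mouse 1 were level. Its log2 fold change was -0.77 ± 0.26 (adjusted p = 0.0241), and the call was lost without control mouse 2 or 3 or NR4A2 mouse 2 or 3 (adjusted p up to 0.141). It was also lost under DESeq2, among regions of at least median signal, with scaling to regions at gene ends and without scaling for depth (adjusted p up to 0.425). Ltbp4, which encodes a binding protein of latent TGF-beta, went from 199.4 ± 50.4 to 124.7 ± 33.8 CPM (adjusted p = 6.70e-03), a call lost without control mouse 3 or NR4A2 mouse 2 (adjusted p up to 0.111). Phip and Ltbp4 lost their calls without scaling for depth.

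Among regions at or above the median signal whose groups did not overlap, the 10 largest gains ranged from 2.94 to 3.94 on the log2 scale. Plcb4, a phospholipase C that acts downstream of Gq-coupled receptors, holds the largest: its region (chromosome 2, 135848082 to 135848604), 166.0 kb from the nearest gene end, had 7.17, 13.6 and 0 CPM in control mice and 69.7, 89.8 and 65.6 CPM in NR4A2 mice. The log2 fold change was 3.94 ± 0.85 (adjusted p = 0.0106). It was 2.78 without control mouse 3, which had no read there, and with a pseudocount of 0.5 in place of 1 the call was lost (adjusted p = 0.11). Ano4, an anoctamin channel protein, had 4.10, 9.73 and 9.05 CPM in control and 63.0, 70.9 and 117.3 CPM in NR4A2 mice (3.32 ± 0.40, adjusted p = 3.69e-10). At Ank3, which encodes ankyrin-G, a scaffold of the membrane skeleton, the region had 4.10, 8.76 and 18.1 CPM in control and 88.8, 66.2 and 102.2 CPM in NR4A2 mice (3.12 ± 0.39). In each of these the lowest NR4A2 mouse was several times above the highest control mouse.

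Nek3, a kinase, had the strongest signal among these gains, with 26.6, 11.7 and 7.24 CPM in control and 102.2, 111.9 and 140.0 CPM in NR4A2 mice (log2 fold change 3.05 ± 0.33, adjusted p = 4.37e-11). Nfkb1, which encodes the p105 and p50 subunit of NF-kB, had 11.3, 17.5 and 1.81 CPM in control and 78.3, 63.05 and 63.07 CPM in NR4A2 mice (3.00 ± 0.46, adjusted p = 2.88e-06). Smyd1, which encodes a methyltransferase of striated muscle, had 8.20, 10.7 and 7.24 CPM in control and 66.8, 96.15 and 59.3 CPM in NR4A2 mice (2.94 ± 0.39, adjusted p = 6.92e-09). In each of these 3 regions every NR4A2 mouse stood well above every control mouse. The others of the 10 were at Angpt2, a vascular growth factor gene that lies within Mcph1 (log2 fold change 3.20), Abi3bp, an extracellular matrix protein (3.02), Myo16, an unconventional myosin (2.99), and Ncald, a neuronal calcium sensor (2.95), with NR4A2 means of 69.3 to 87.5 CPM from control means of 8.59 to 9.51 CPM.

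**Figure D4:**
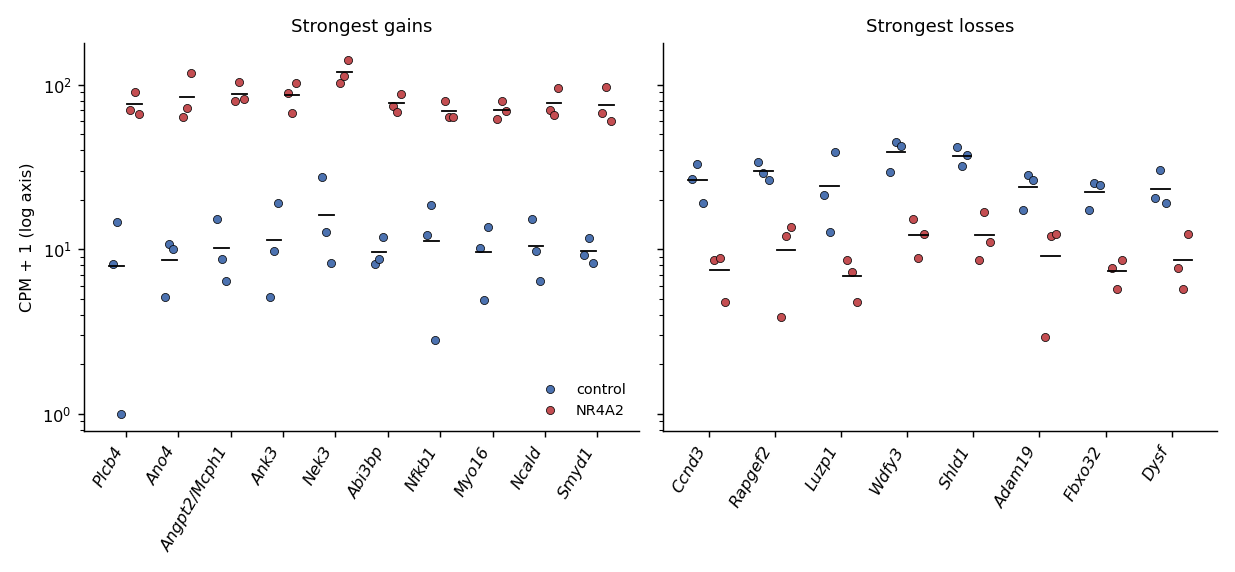
CPM + 1 (log axis) in each control (blue) and NR4A2 (red) mouse at the 10 strongest gains and 8 strongest losses, with means as black lines; Angpt2/Mcph1 is 1 region in both genes. In all 18 regions the groups do not overlap, which the rule for choosing them required.

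The strongest losses were smaller, and few stood without every mouse. The region in Ccnd3, which encodes cyclin D3 (chromosome 17, 47521704 to 47521959), had 25.6, 32.1 and 18.1 CPM in control mice and 7.64, 7.88 and 3.78 CPM in NR4A2 mice (log2 fold change -1.84 ± 0.55, adjusted p = 0.0104). Wdfy3, a scaffold of selective autophagy, had 28.7, 43.8 and 41.6 CPM in control and 14.3, 7.88 and 11.4 CPM in NR4A2 mice (-1.69 ± 0.43, adjusted p = 2.02e-03). Shld1, a subunit of the shieldin complex of DNA repair, had 41.0, 31.1 and 36.2 CPM and 7.64, 15.8 and 10.1 CPM (-1.66 ± 0.43, adjusted p = 2.98e-03). Wdfy3 and Shld1 kept their calls without any 1 mouse and in every other setting that tested them. The other losses were at Rapgef2, an exchange factor for the GTPase Rap (-1.79), Luzp1 (-1.71), the protease gene Adam19 (-1.63), Fbxo32 (-1.61) and Dysf, which encodes the membrane repair protein dysferlin (-1.48). Calls were lost without control mouse 1 at Ccnd3, Rapgef2, Luzp1, Fbxo32 and Dysf, without control mouse 2 at Ccnd3, Adam19, Fbxo32 and Dysf, and without control mouse 3 at Luzp1, Adam19, Fbxo32 and Dysf. They were lost without NR4A2 mouse 1 at Rapgef2, Adam19 and Dysf, without NR4A2 mouse 2 at Fbxo32 and Dysf, and without NR4A2 mouse 3 at Luzp1. Over all 77 lower regions, scaling to the regions at gene ends left 15 and no scaling for depth left 3.

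The regions of highest signal did not gain. Esr1, the estrogen receptor gene, holds the strongest, a region of 270 bp with 710.0, 576.2 and 322.2 CPM in control mice and 664.6, 822.8 and 514.6 CPM in NR4A2 mice (log2 fold change 0.36 ± 0.30, adjusted p = 0.494). The spread within each group was larger than the difference between them. The Cre fusion of both groups contains an Esr1 sequence by its strain name, and whether reads of the transgene were counted there was not tested. A pair of regions in Tex14, a germ cell gene, had means of 573.9 and 488.7 CPM in control and 628.6 and 543.4 CPM in NR4A2 hearts, and the internal start of Tef, a clock output factor, had 310.6 and 286.4 CPM. None of these was called, and Phip, the fifth by signal, was lower.

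Gains were spread over many host genes and ran along some of them. The 4008 regions lay in 1989 host genes, of which 1214 held 1 region and 27 held at least 10, and 44 regions lay in more than 1 host. At least 1 higher region was found in 839 hosts (42.2%), at least 1 lower in 74 (3.72%) and both in 14. At least 2 higher regions were found in 199 hosts and at least 4 in 21. In 17 hosts with 3 or more regions every region was higher, led by Fto, an RNA demethylase gene, with 5 of 5, and by Hspa4, Mlxip, Rad51b and Sfswap with 4 of 4. These 5 genes were picked for that count after the values had been seen. In 29 hosts with 5 or more regions none was called, among them genes of the Z-disc and costamere: Ldb3 with 0 of 15, Ablim1 and Fhl2 with 0 of 13 each, and Pdlim5 with 0 of 11.

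Cdhr3, a cadherin family gene, held the most higher regions, 7 of 8, centred 24.6 to 35.1 kb from its start. The strongest (chromosome 12, 33057037 to 33058534) had 53.3, 57.4 and 52.5 CPM in control mice and 157.5, 286.9 and 169.0 CPM in NR4A2 mice (log2 fold change 1.84 ± 0.21, adjusted p = 6.36e-11). NR4A2 mouse 2 was highest, and the lowest NR4A2 mouse was well above all controls. Another region, 767 bp long, had 25.6, 29.2 and 21.7 CPM and 80.2, 118.2 and 100.9 CPM (1.92 ± 0.28). The weakest of the 7 went from 4.19 ± 0.629 to 19.9 ± 11.6 CPM, and its call was lost without control mouse 1 or 2 or NR4A2 mouse 2 or 3. Of the 7 calls 4 remained without NR4A2 mouse 3, and the same number kept theirs whichever mouse was left out. The eighth region had 16.2 ± 6.39 and 28.7 ± 9.62 CPM (adjusted p = 0.216).

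Lpin1, which encodes lipin 1, a phosphatidate phosphatase and coregulator of fatty acid oxidation genes, held 6 higher of 9 regions, on both sides of the gene's middle. The weakest of these calls was lost without control mouse 3 or any 1 NR4A2 mouse. Its strongest (chromosome 12, 16643445 to 16644566) had 32.8, 47.7 and 54.3 CPM in control mice and 98.3, 154.5 and 92.1 CPM in NR4A2 mice (log2 fold change 1.33 ± 0.24, adjusted p = 1.81e-05). A region near the middle of the gene did not share in this, with 29.2 ± 11.2 CPM in control and 19.7 ± 8.00 CPM in NR4A2 hearts (adjusted p = 0.399). Ppargc1b, which encodes the coactivator PGC-1beta, held 5 higher of 9 regions. The strongest (chromosome 18, 61330285 to 61332169, 1885 bp) had 93.2, 68.1 and 63.4 CPM in control and 205.3, 233.3 and 208.1 CPM in NR4A2 mice (1.53 ± 0.19, adjusted p = 2.08e-09). All 9 Ppargc1b regions had positive fold changes. Of its 5 calls, 1 was lost without NR4A2 mouse 3 and another without control mouse 3, NR4A2 mouse 1 or NR4A2 mouse 2.

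Tom1l2, a gene of endosomal sorting, held 5 higher of 8 regions, the strongest with 25.6, 32.1 and 38.0 CPM in control mice and 144.2, 145.0 and 161.4 CPM in NR4A2 mice (log2 fold change 2.22 ± 0.24, adjusted p = 1.63e-11). The NR4A2 mice lay close together there, far above the controls. Rptor, which encodes raptor of mTOR complex 1, held 5 higher of 7, led by a region 88.3 kb from the gene end with 14.3, 6.81 and 5.43 CPM and 50.6, 66.2 and 85.8 CPM (2.87 ± 0.41). Of the 5 Rptor calls 3 remained without NR4A2 mouse 3, and 2 kept theirs whichever mouse was left out. Rgs6, a regulator of G protein signalling that limits muscarinic slowing of the heart, held 5 of 8. Its strongest gain went from 4.18 ± 1.46 to 33.5 ± 5.19 CPM, and 3 of its 5 calls held whichever mouse was left out.

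Ttn, the gene of the giant sarcomere protein titin, had a small share of gains. It holds 163 of the 4008 regions, the most of any gene, over a span of 278.6 kb. Of these, 6 (3.68%) were higher and none was lower. None of the 6 calls remained without control mouse 3, 1 without NR4A2 mouse 1, 2 without NR4A2 mouse 2, 3 without NR4A2 mouse 3 and 4 without control mouse 2. A positive log2 fold change was found in 134 of the 163, and the median was 0.32. The median region had 27.8 CPM in control and 34.6 CPM in NR4A2 hearts. The gain with the smallest adjusted p (chromosome 2, 76790325 to 76790817) went from 15.5 ± 8.76 to 38.2 ± 4.96 CPM (1.44 ± 0.42, adjusted p = 8.98e-03). Without Ttn, and without internal starts, 1102 of 3423 deep intragenic regions (32.2%) were higher.

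**Figure D5:**
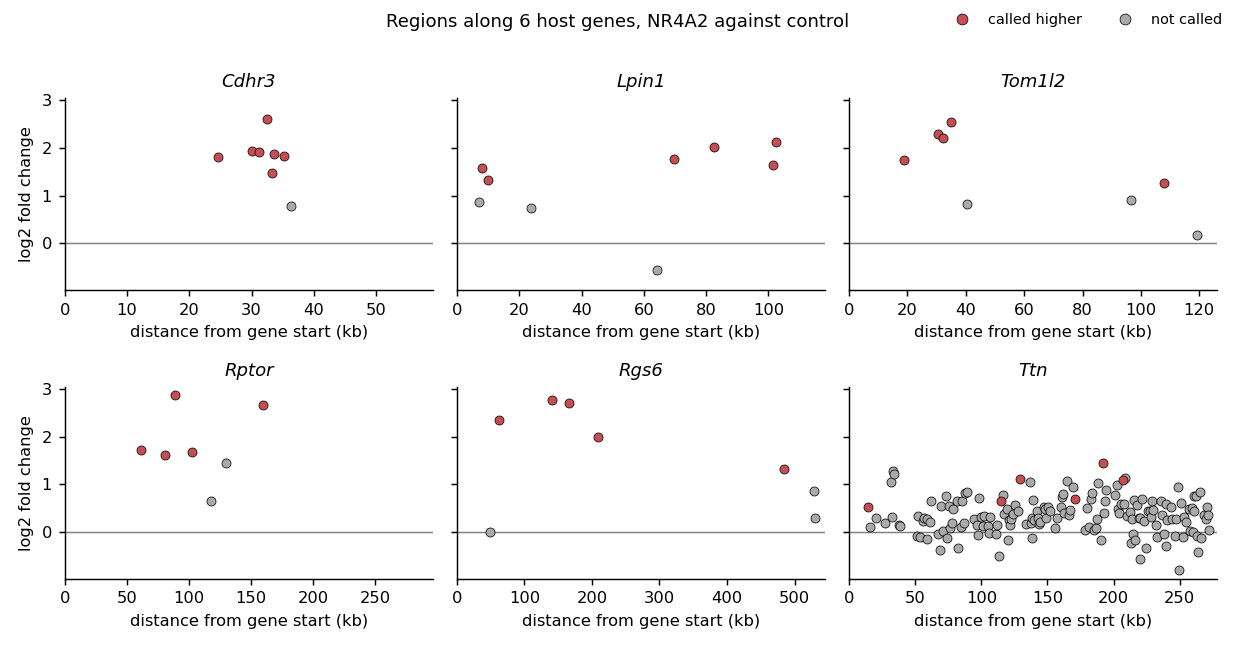
Log2 fold change (y axis) of every deep intragenic region in 6 host genes against its distance from the gene's start (kb, x axis to the gene's end), red where called higher and grey where not called. In Cdhr3 the 7 called regions sit together at 24.6 to 35.1 kb, and in Ttn 6 of 163 regions are called while most lie slightly above 0.

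Both directions were found within 14 hosts. The 6 taken were those in which the larger p of the pair was smallest. In Rapgef2 a region rose from 6.39 ± 1.12 to 42.4 ± 15.8 CPM, and another fell from 28.8 ± 3.75 to 8.84 ± 5.23 CPM, a fall lost without control mouse 1 or NR4A2 mouse 1. In Fbxo32, which encodes the muscle ubiquitin ligase atrogin-1, the opposite calls were neighbours. A region at 58194799 to 58195231 on chromosome 15 had 22.5, 21.4 and 10.9 CPM in control mice and 43.9, 58.3 and 40.4 CPM in NR4A2 mice (log2 fold change 1.38 ± 0.37, adjusted p = 3.58e-03). The region just beside it, 58194159 to 58194449, had 16.4, 24.3 and 23.5 CPM and 6.68, 4.73 and 7.57 CPM (-1.61 ± 0.57, adjusted p = 0.0361), a call lost without any 1 control mouse or NR4A2 mouse 2. One more, at 58192288 to 58192974, fell from 51.6 ± 10.4 to 26.7 ± 11.5 CPM (adjusted p = 0.0249), a call lost without control mouse 1 or 2 or NR4A2 mouse 3. In Abca1, the cholesterol exporter, a region 15.7 kb from the gene end rose from 8.02 ± 1.13 to 57.7 ± 18.3 CPM and another fell from 53.7 ± 10.4 to 27.0 ± 8.63 CPM, a fall lost without control mouse 1 or 2 or NR4A2 mouse 3. In Gpam, the first enzyme of triglyceride synthesis, a region rose from 25.15 ± 3.64 to 79.0 ± 16.3 CPM and the internal start fell from 118.8 ± 16.3 to 71.8 ± 17.6 CPM, a fall lost without NR4A2 mouse 2. Nfia, a nuclear factor I gene, and Shld1 were the others.

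Host genes were also read by 21 gene lists of heart function, signalling and other cell types. The lists are described by counts, with no test, beside the 28.2% of all deep intragenic regions that were higher. Of all 1989 hosts, 42.2% held a higher region and 3.72% a lower. Lists were not matched for the number of regions per host. Among metabolic lists, 11 of 16 glycolysis, glycogen and pyruvate hosts held a higher region and 1 a lower, and 15 of 34 regions were higher (44.1%, median log2 fold change 0.70). Pfkm rose inside the gene from 16.9 ± 9.36 to 110.0 ± 5.96 CPM (2.80 ± 0.33, adjusted p = 5.09e-10), with 105.0, 116.6 and 108.5 CPM in the 3 NR4A2 mice. Phkb, a subunit of phosphorylase kinase, rose from 7.71 ± 2.47 to 58.6 ± 12.1 CPM, and Gpi1, glucose-6-phosphate isomerase, from 16.8 ± 9.91 to 93.5 ± 24.3 CPM. Of 17 fatty acid hosts 8 held a higher and 2 a lower region, and 19 of 77 regions were higher (24.7%). Among them Ppargc1a, which encodes PGC-1alpha, rose from 15.1 ± 1.35 to 62.5 ± 16.0 CPM (1.95 ± 0.35). The respiratory chain and carrier list had 8 hosts with 10 regions, of which 3 were higher, at Slc25a42, Ndufaf2 and Mfn2. The Ndufaf2 call was lost without NR4A2 mouse 3, and that of Mfn2 without control mouse 1 or 2 or NR4A2 mouse 2 or 3.

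Of 17 insulin, growth factor and AMPK hosts 10 held a higher and 1 a lower region, and 17 of 36 regions were higher (47.2%, median 1.11). Foxo3, a transcription factor restrained by insulin signalling, rose from 8.15 ± 2.47 to 54.8 ± 8.76 CPM (2.64 ± 0.42), and Prkag2, the gamma 2 subunit of AMPK, from 10.3 ± 2.30 to 57.8 ± 7.25 CPM. Of 34 adrenergic, Gq and cAMP hosts 19 held a higher region and none a lower, and 33 of 100 regions were higher (33.0%). Pde4d, a cAMP phosphodiesterase bound to ryanodine receptors, had 8.20, 22.4 and 19.9 CPM in control mice and 65.9, 85.1 and 112.3 CPM in NR4A2 mice (2.39 ± 0.33, adjusted p = 4.21e-08). Pde1c rose from 3.28 ± 1.69 to 47.2 ± 9.29 CPM, a gain in a region with almost no control signal. In the Hippo, TGF-beta and Wnt list 7 of 31 regions were higher and 1 lower, and Tead1, a Hippo pathway transcription factor, rose from 5.44 ± 2.25 to 33.4 ± 6.86 CPM.

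Of 24 hosts for nuclear receptors and coregulators 13 held a higher and 2 a lower region, and 21 of 56 regions were higher (37.5%, median 0.93). Rora, a receptor that itself binds an extended core motif, rose from 6.18 ± 2.74 to 45.7 ± 5.49 CPM at a region 361.8 kb inside the gene, with 49.6, 39.4 and 47.9 CPM in NR4A2 mice. Nr2c2 rose from 6.26 ± 3.86 to 36.9 ± 7.79 CPM. Of 23 cardiac transcription factor hosts 15 held a higher and 1 a lower region, but 25 of 115 regions were higher (21.7%, median 0.22). Among the higher regions, those in Creb5, Meis2 and Zbtb16 had log2 fold changes of 2.18, 2.21 and 1.60. The circadian list had 5 of 15 regions higher, in 2 of 8 hosts, Rora and Cry2, and the Cry2 call was lost without control mouse 3 or any 1 NR4A2 mouse. The difference between lists was not tested.

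Contraction and excitation hosts differed in their shares. Sarcomere and Z-disc genes held 297 regions, 163 of them in Ttn, of which 32 (10.8%) were higher and 3 lower. Without Ttn 26 of 134 were higher (19.4%). Of the 25 hosts, 16 held at least 1 higher region, with Smyd2 rising from 10.6 ± 1.25 to 53.65 ± 8.15 CPM and Palld from 11.5 ± 6.08 to 42.1 ± 14.2 CPM. Calcium handling had 14 of 71 regions higher (19.7%) and 3 lower. Cacna1c, the L-type calcium channel gene, had 15.4, 8.76 and 9.05 CPM in control mice and 55.4, 88.3 and 87.0 CPM in NR4A2 mice (2.70 ± 0.37, adjusted p = 1.57e-08). A region in Ryr2, the ryanodine receptor, rose from 10.2 ± 2.14 to 38.8 ± 14.6 CPM. Of the 7 Ryr2 regions 2 were higher and 1 lower, with a median log2 fold change of 0.20. A region in Trdn, triadin, rose from 62.2 ± 11.4 to 145.0 ± 24.8 CPM. Ion channel and conduction genes had 12 of 27 regions higher (44.4%, median 0.92) and none lower, with Fgf12, a modulator of sodium channels, at 14.3, 15.6 and 18.1 CPM in control and 76.4, 100.9 and 78.2 CPM in NR4A2 mice. In the intercalated disc and costamere list 27 of 103 regions were higher (26.2%) and 2 lower. A second Ank3 region, the strongest of that list, went from 18.9 ± 3.81 to 127.1 ± 49.9 CPM.

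Smaller lists were mixed. Autophagy and muscle proteolysis had 6 of 23 regions higher and 2 lower, in Ulk1, Atg7 and Atg10 among others. The calls were lost without NR4A2 mouse 3 at Ulk1, without NR4A2 mouse 2 or 3 at Atg7 and without NR4A2 mouse 1 at Atg10. Fetal and stress genes had 3 of 6 higher, at Rcan1, Myl4 and Uck2, and 1 lower, at Mthfd1l. Each of these 4 calls was lost when 1 mouse was left out: NR4A2 mouse 3 for Rcan1, NR4A2 mouse 1 for Myl4, control mouse 2 or any NR4A2 mouse for Uck2, and control mouse 1 or 2 or NR4A2 mouse 1 or 3 for Mthfd1l. 

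Among genes known for other cell types, the endothelial list alone gave many hosts, 11 of 18 markers. Of 21631 protein-coding genes only 1989 host a deep intragenic region. Few or no hosts in a short list are therefore not a result about its cell type. No host was found for 14 fibroblast markers or for 12 Schwann cell and adipocyte markers, and 2 smooth muscle hosts held 5 regions, none called. The 11 endothelial hosts held 28 regions, 3 higher and 1 lower, with a median log2 fold change of -0.24, and their summed signal was 801.9 to 1033 CPM in control mice and 703.7 to 972.6 CPM in NR4A2 mice. Vwf, the von Willebrand factor gene, rose from 14.5 ± 4.38 to 66.1 ± 22.2 CPM, while Pecam1 fell from 102.8 ± 31.2 to 63.0 ± 18.2 CPM, a fall lost without control mouse 1 or 2 or NR4A2 mouse 1. The 2 immune hosts, Itgam and Itgax, each held 1 region and both were higher, at 23.9, 23.6 and 68.1 CPM and 21.0, 15.8 and 41.6 CPM in NR4A2 mice, from control means of 8.40 and 5.51 CPM. NR4A2 mouse 3 was highest in both, and both calls were lost without it. ChIP-seq signal at a gene is not its expression, so these lists do not show which cells were present.

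Long genes of neuronal adhesion and synapses, a list not tied to heart function, had the highest share of gains among lists with more than 10 regions. Of its 14 hosts 12 held a higher region and none a lower, and 20 of 32 regions were higher (62.5%, median log2 fold change 1.69). Their summed signal was 405.5 to 445.8 CPM in control mice and 931.9 to 1271 CPM in NR4A2 mice. Ptprd, a receptor phosphatase of synapses, had 2.05, 6.81 and 3.62 CPM in control and 43.9, 31.5 and 46.7 CPM in NR4A2 mice (3.10 ± 0.54, adjusted p = 5.82e-06). Astn2 rose from 6.79 ± 2.69 to 49.7 ± 13.8 CPM and Opcml from 5.11 ± 1.89 to 40.7 ± 12.6 CPM. Rbfox1, which encodes a splicing factor also found in heart, had a stronger site, at 51.2, 66.2 and 32.6 CPM in control and 106.0, 121.4 and 119.8 CPM in NR4A2 mice. Each of these regions lay 33.55 to 312.3 kb inside its gene, and the rise of the share of gains with distance described above was not separated from the list.

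The regions at the limits of the rule are given as a description. Just inside 5 kb were P2rx5 (14.03 ± 4.72 to 35.8 ± 10.5 CPM) and Ccdc102a (46.4 ± 8.19 to 28.1 ± 10.9 CPM), and just outside Fam20a (11.3 ± 1.98 to 26.4 ± 4.45 CPM) and Abhd4 (40.2 ± 16.0 to 32.1 ± 6.68 CPM). The longest regions taken were in Tef (1991 bp) and Ttn (1986 bp), and the shortest left out for length were in Rarg (2013 bp, 233.1 ± 60.6 to 197.9 ± 20.4 CPM) and Trdn (2050 bp, 108.4 ± 35.2 to 119.9 ± 24.3 CPM).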

How the data were processed

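NR4A2 ChIP-seq values were used from 3 control and 3 NR4A2 mice, and columns were matched to mice by name. The submitters' processing notes name BWA and builds GRCm38 and mm10. For the peak caller, merging, counter and filters, the sources used here give nothing. The deposited values per mouse are CPM: 100% were whole multiples of 1 read (tolerance 0.001 of a read), relative to each library's reads in regions. Those reads were recovered for the count tools. The authors' log2 fold change, p-value and FDR per region are deposited beside them, per the file headers.

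Regions were placed against RefSeq spans (GRCm38.p6), which give no exons, so exon and intron are not told apart. limma 3.58.1 (trend, robust) was fitted on log2(CPM + 1) with a term for genotype alone, no filter and Benjamini-Hochberg adjustment over 16884 regions. It was also run on simulated reads with few regions changed, as many up as down, so a mainly upward change was not simulated. Alternatives were edgeR 4.0.16 and DESeq2 1.42.0 on recovered reads, other pseudocounts, scalings, filters, member limits, a replicate block and leaving out each mouse. Replicates are separate mice by the labels' titles, and p-values measure the spread between them. Depth limits weak regions: 3 reads were worth 2.86 to 5.43 CPM.

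Members and gene lists (21 lists, 737 entries, 735 matched) were chosen with earlier results of these data known. Named regions are the 10 largest gains of at least median signal and the 8 largest losses, all without overlap of the groups, regions of the 8 hosts with the most gains, the 4 best hosts per list, the 5 strongest, pairs of opposite calls in up to 6 hosts and those at the limits. Internal starts and the motif counts in their windows were added after the data had been seen, and their named starts were chosen from those counts. Some of the regions this rule names are not reported here.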

Additional observations from a re-analysis of the deposited data

How the results depend on the processing

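The main fit gave 1130 higher and 77 lower regions. Testing only regions at or above the median signal, 1043 of the 4008, gave 174 and 20. Their median log2 fold change was -0.051, against 0.41 over the 4008. These are the stronger groups by mean CPM, of 679 and 364 regions. There the main fit had called 161 and 32 higher and 19 and 32 lower, so lower calls were also lost among the regions tested. Scaling to regions at gene ends gave 15 lower regions and a median of 0.58, and it moved the median of all regions from -0.06 to 0.10. Without scaling for depth, added after the data had been seen, 643 were higher and 3 lower. That setting leaves the depth of each library, 549700 to 1035856 reads in regions, in the values, so mice of the same group also differ by depth. DESeq2 gave 28 lower, an adjusted p under 0.01 gave 13, and the limit of 10 kb gave 51. Without 1 mouse, 709 to 1042 were higher and 38 to 73 lower, and the median was 0.37 to 0.46. The cause was not tested.

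Same-numbered mice did not deviate together more than others (correlations -0.066, 0.061 and 0.033, against -0.102 to 0.070 for differently numbered mice). With 3 mice per group, these values cannot tell whether the numbers pair samples. A fit with the replicate block gave 1164 higher and 85 lower.

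Of 130 called regions among the 339 named, 74 kept their call in every setting that tested them, and none reversed. Depth limits weak regions: control mouse 3 had 57 of the 4008 without a read.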
